A study of Mus musculus with 3 samples.

Results

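Collagen chain genes were followed in the dental papilla, the mesenchyme at the core of the tooth germ, which gives rise to the dentin-forming odontoblasts and the dental pulp. The family was taken as every probe set whose single gene symbol in the platform annotation has the form Col, digits, a, digits. This gave 82 probe sets for 42 genes, out of 45101 probe sets and 18193 genes. The samples were papillae of the lower first molar of ICR mice, an outbred stock, at embryonic day 16 (E16), embryonic day 18 (E18) and postnatal day 3 (P3). Papillae were freed with enzymes, over 20 of them went into each RNA sample, and no genetic change or treatment is named at any stage. Each stage has 1 array, so no test and no error between samples is possible, and stage and array cannot be told apart.

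Collagens are secreted proteins in which chains with a glycine-rich repeat wind around each other into a stiff helix. Fibrillar collagens pack into the fibrils that give tissues tensile strength, and type I is the main protein of dentin and bone. FACIT collagens decorate those fibrils, network collagens form sheets such as the basement membrane, beaded-filament collagens form microfibrils between fibrils and cells, and transmembrane collagens are anchored in the cell surface. In the tooth germ, odontoblasts lay down a type I matrix that mineralises as dentin, while a basement membrane lies between papilla and enamel epithelium.

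The deposited values are ratios in which each probe set was divided by the middle of its 3 array values, or by a fixed value where the middle one was smaller than that. From the steps in those ratios a signal was recovered for every array, in array units, and signals below a floor of 82.1, the median of all recovered signals, were set to it before log2 differences were taken. A gene counted as measured in a comparison if either array reached the floor, and is written "at least N-fold" when the other was below it. A fold difference between arrays that both reached the floor is a ratio of deposited values, whereas a bound, a call near the floor and the choice among a gene's probe sets rest on the recovered signals. A recovered signal can be too low, so levels of different genes are not compared. The marker sums given further on use signals without the floor and add probe sets that may differ in response. The 3' over 5' ratio of the actin control, which follows RNA integrity and labelling, was 3.87 times as high at E18 and 2.46 times as high at P3 as at E16, and that of Gapdh was 1.42 and 0.355 times. Its part in the differences was not tested. Where a gene has several probe sets, the one with the highest mean floored log2 signal stands for it. For collagens, values from other probe sets that reached the floor are given beside it. Partner and marker genes are given by that 1 probe set alone.

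Of the 42 genes, 30 reached the floor on all 3 arrays, 7 on 1 or 2 arrays, and 5 on none. The 5 below the floor throughout were Col4a4, Col6a4, Col6a5, Col20a1 and Col10a1, the last of them the collagen of enlarging cartilage cells. The 7 in between were Col2a1, Col9a2, Col9a3, Col11a2, Col22a1, Col24a1 and Col25a1. A gene that was below the floor at the earlier stage and measured could only come out higher, which bears on the counts of higher genes that follow. Col28a1 and Col6a6 were not analysed here. All 9 dental mesenchyme markers reached the floor on every array. With bulk RNA, fewer cells of a type and less RNA per cell cannot be told apart.

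**Figure D1:**
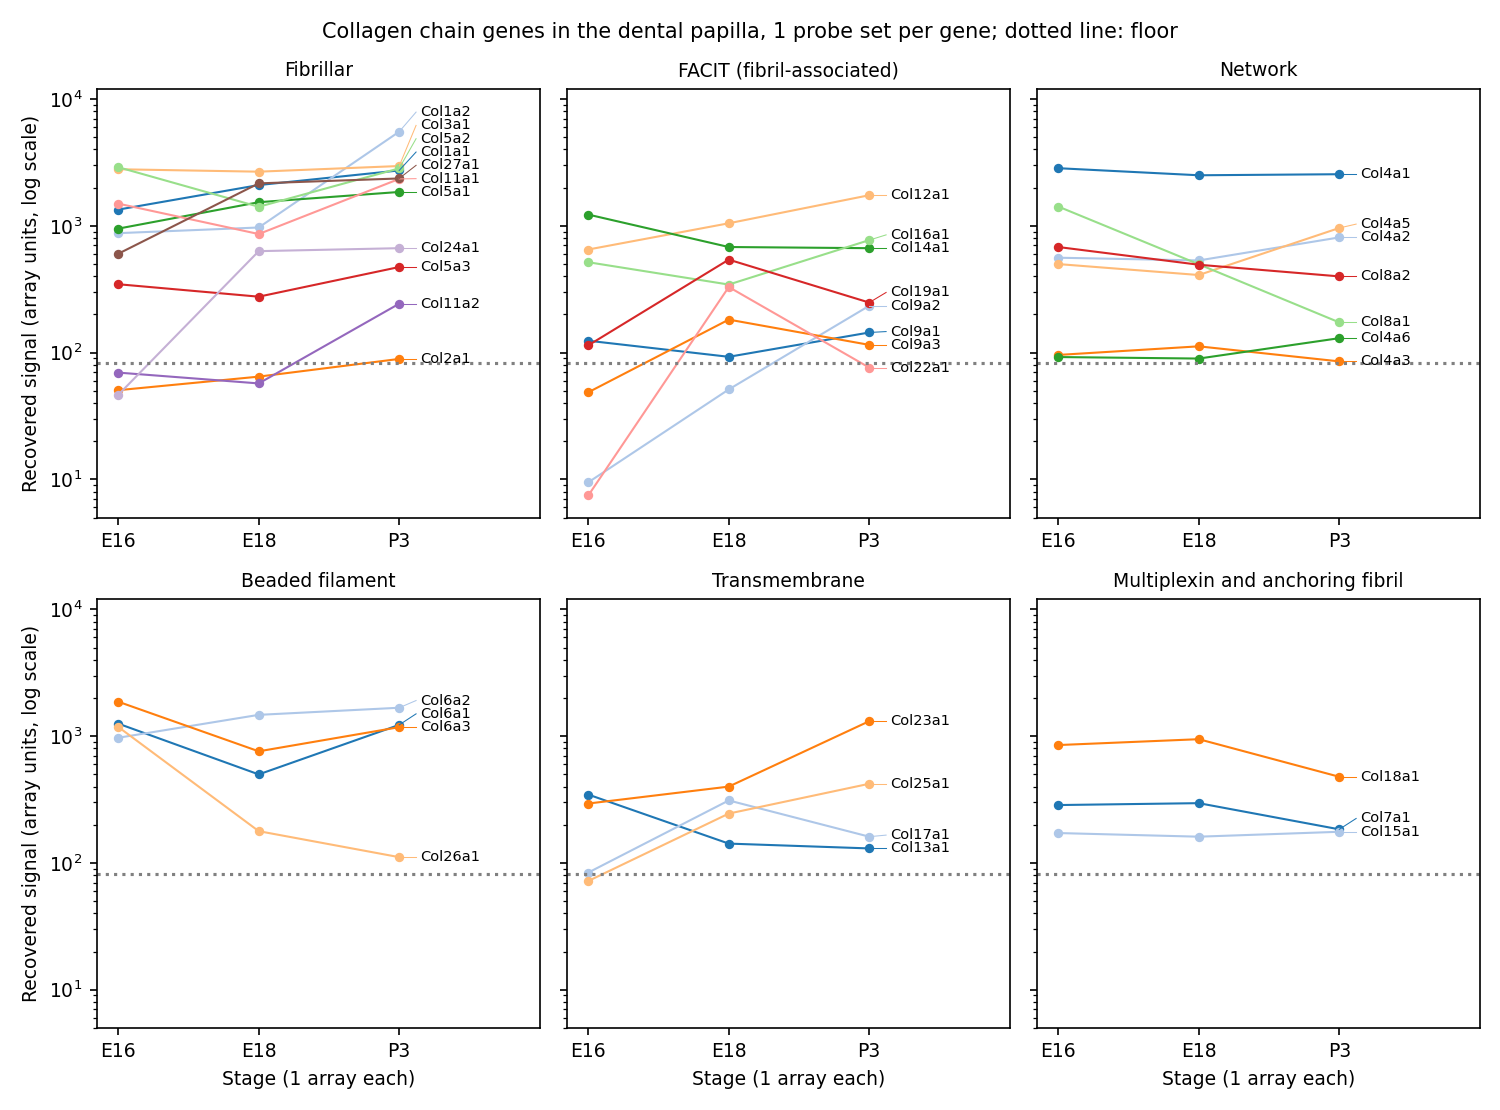
Recovered signal (array units, log scale) of each collagen chain gene that reached the floor on any array, at E16, E18 and P3, with 1 probe set per gene, 1 array per stage and 1 panel per class; the dotted line is the floor of 82.1. Col1a2, Col24a1 and Col27a1 end higher than they start, Col8a1 and Col26a1 end lower, and Col6a1 and Col5a2 dip at E18.

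Between E16 and P3 more collagens were higher than lower by 2-fold, and most differed by less. Col26a1, Col8a1 and the membrane collagen Col13a1 were the lower ones. Of 36 collagen genes measured, 10 were higher by 2-fold or more at P3, against 6.53% of 12199 genes over the whole array, and 3 were lower by 2-fold or more, against 15.4%. The 10 were Col1a1, Col1a2, Col11a2, Col24a1 and Col27a1 (fibrillar), Col9a2, Col12a1 and Col19a1 (FACIT) and Col23a1 and Col25a1 (transmembrane), and 4 of them were bounds. After quantile normalization or scaling to equal medians, 14 were higher and 3 lower, with Col4a5, Col5a1, Col6a2 and Col17a1 added. The median log2 difference was 0.49 for the collagens and -0.17 for all genes. Scaling moved the second value to 0.02 (quantile normalization) and 0.09 (equal medians), and the share of higher genes among all those past 2-fold from 29.8% to 49.0% and 51.6%. The collagen median lay 0.66 above that of all genes as deposited, and 0.64 and 0.65 above it after these scalings. As members were chosen with these results known, the counts describe 2 arrays and are not a test.

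From E16 to E18 collagens went both ways. Of 34 measured, 7 were higher by 2-fold or more (8.00% of 12040 genes) and 6 lower (7.99%), and the median was -0.05, next to -0.04 for all genes. Higher at E18 were Col24a1, Col27a1, Col25a1, Col17a1, Col19a1, Col22a1 and Col9a3. Lower were Col26a1, Col8a1, Col13a1, Col6a1, Col6a3 and Col5a2. From E18 to P3, 9 of 37 were higher by 2-fold or more (4.05% of 12118 genes) and 3 lower (11.7%), with a median of 0.19 next to -0.15. The split became 12 higher and 2 lower after quantile normalization. The higher genes of this second step were Col1a2, Col23a1, Col11a2, Col9a2, Col11a1, Col6a1, Col4a5, Col16a1 and Col5a2, and 2 of these were bounds. The lower genes were Col8a1, Col19a1 and Col22a1. Of the collagens 0 were higher by 2-fold at both steps, a shape held by 0.303% of genes and too rare for this to set the collagens apart. A gene below the floor on both embryonic arrays, such as Col9a2, could not show it, as its first step was not measured. These comparisons share arrays, and an error on the E18 array would move both steps in opposite directions.

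**Figure D2:**
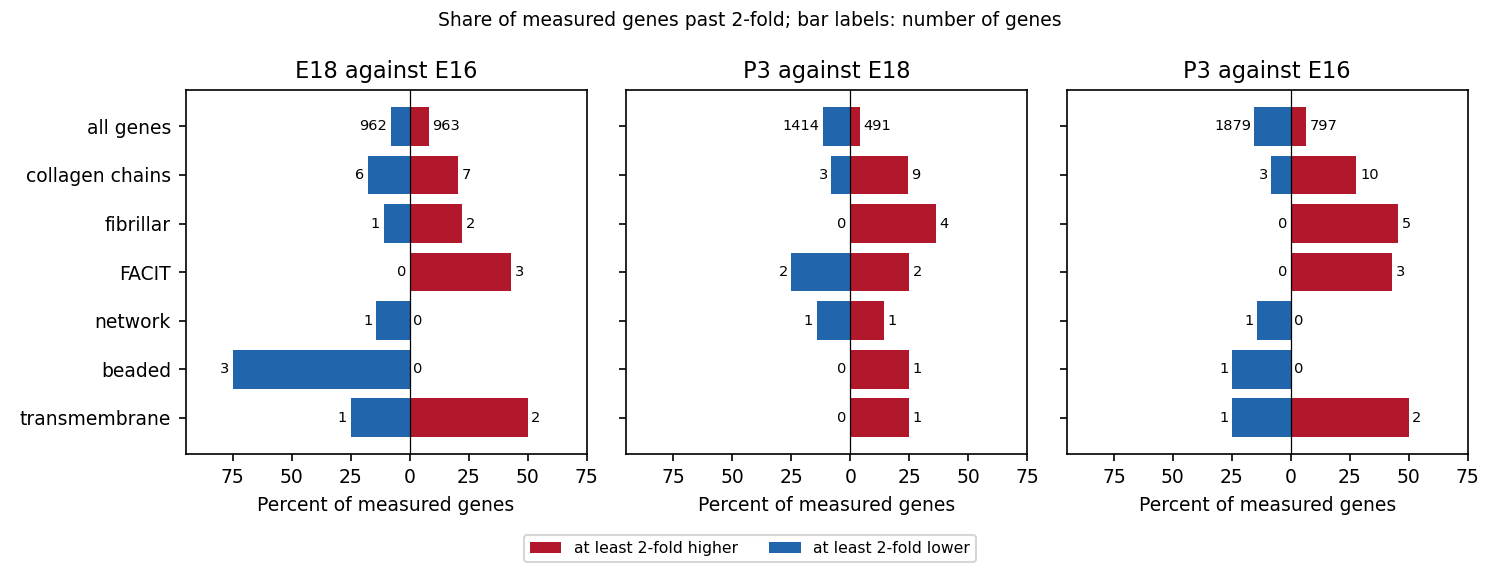
Share of measured genes (percent, x axis) higher by 2-fold or more (red, right) or lower (blue, left) in each of the 3 comparisons, for all genes, all collagen chains and 5 collagen classes, with the number of genes at each bar. For P3 against E16 the fibrillar bar shows 5 higher and 0 lower genes and the FACIT bar 3 higher and 0 lower, where all genes show 797 higher and 1879 lower.

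Fibrillar chains, the largest class, held 5 of the 10 genes that were higher at P3. All 11 were measured between E16 and P3, with 5 higher and 0 lower by 2-fold, beside 6.53% and 15.4% of all genes. The median difference was 0.96 on the log2 scale. Col1a2, which encodes the second chain of type I collagen, had signals of 875 at E16, 969.7 at E18 and 5527 at P3. The E16 and E18 arrays were close and P3 stood apart, 6.31-fold above E16 and 5.70-fold above E18. Its other probe sets gave 3.12-fold and 2.27-fold for P3 against E16, with signals of 248, 163 and 772 and of 1018, 718 and 2308. All 3 probe sets were highest at P3, but at E18 the first was 1.11-fold above E16 and the others 1.51-fold and 1.42-fold below it.

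Col1a1, the main chain of type I collagen, was higher at P3 by an amount that depended on the probe set. The one that stands for the gene had signals of 1342, 2096 and 2734 at E16, E18 and P3, a 2.04-fold difference between P3 and E16. The other read 27.6, 159.7 and 6650.3, which makes P3 at least 81.0-fold above E16 and 41.7-fold above E18. Both placed the stages in the same order. The 3 arrays give no way to say which probe set is nearer to the RNA level, and taking their median moved the gene's log2 difference between P3 and E18 from 0.38 to 2.88.

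Col24a1 and Col27a1, minor fibrillar collagens found in developing bone and cartilage, were higher already at E18. Col24a1 read 46.4 at E16, 631 at E18 and 666 at P3, at least 7.69-fold higher at E18 and at least 8.12-fold at P3. Col27a1 read 602, 2161 and 2363, which is 3.59-fold higher at E18 and 3.92-fold at P3, and its second probe set read 275, 1324 and 971, or 4.81-fold and 3.53-fold. For both genes the step lay between the embryonic arrays, with E18 and P3 within 1.36-fold of each other by every probe set. Col1a2 had its larger step in the later interval, whereas the probe set that stands for Col1a1 had log2 differences of 0.64 at the first step and 0.38 at the second. The other Col1a1 probe set was at least 1.94-fold higher at the first step, 5.78-fold without a floor, and 41.7-fold at the second. By that probe set the larger step of Col1a1 was the later one too, so its timing rests on the choice of probe set.

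The chains of types V and XI, which join type I or II fibrils and limit their width, had varied patterns. Col11a1 read 1496, 861 and 2344, with its low point at E18 and P3 2.72-fold above E18 but 1.57-fold above E16, and its second probe set read 1305, 1055 and 1688. Col11a2 read 69.5, 57.1 and 243, so both embryonic arrays were below the floor and P3 was at least 2.96-fold higher, a log2 bound of 1.57 that became 0.57 with a doubled floor. Col5a2 read 2899, 1413 and 2839, 2.05-fold lower at E18 than E16 and level again at P3. The first difference, -1.04 on the log2 scale, was -0.95 after equal-median scaling, and by the other probe set E18 was 1.20-fold lower. Between P3 and E16 the difference of -0.03 turned to 0.18 and 0.26 under quantile normalization and equal-median scaling.

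Col5a1 read 950.1, 1535 and 1849, but 1145, 613 and 859.6 by its second probe set, so its direction between E16 and P3 rests on the choice of probe set. Col5a3 stayed within 1.71-fold at each step, with 346, 276 and 473. Col3a1, the fibrillar collagen of soft and extensible tissue, read 2793, 2673 and 2962 and was within 1.11-fold at each step, with a first step of -0.06 on the log2 scale that turned to 0.02 after equal-median scaling. Its second probe set read 2237, 1667 and 2589. Col2a1, the fibrillar collagen of cartilage, was below the floor at both embryonic stages and read 89.1 at P3, at least 1.09-fold above E16, a bound that sets no upper limit. Both type I genes were thus past 2-fold between E16 and P3, while Col3a1 was not.

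**Figure D3:**
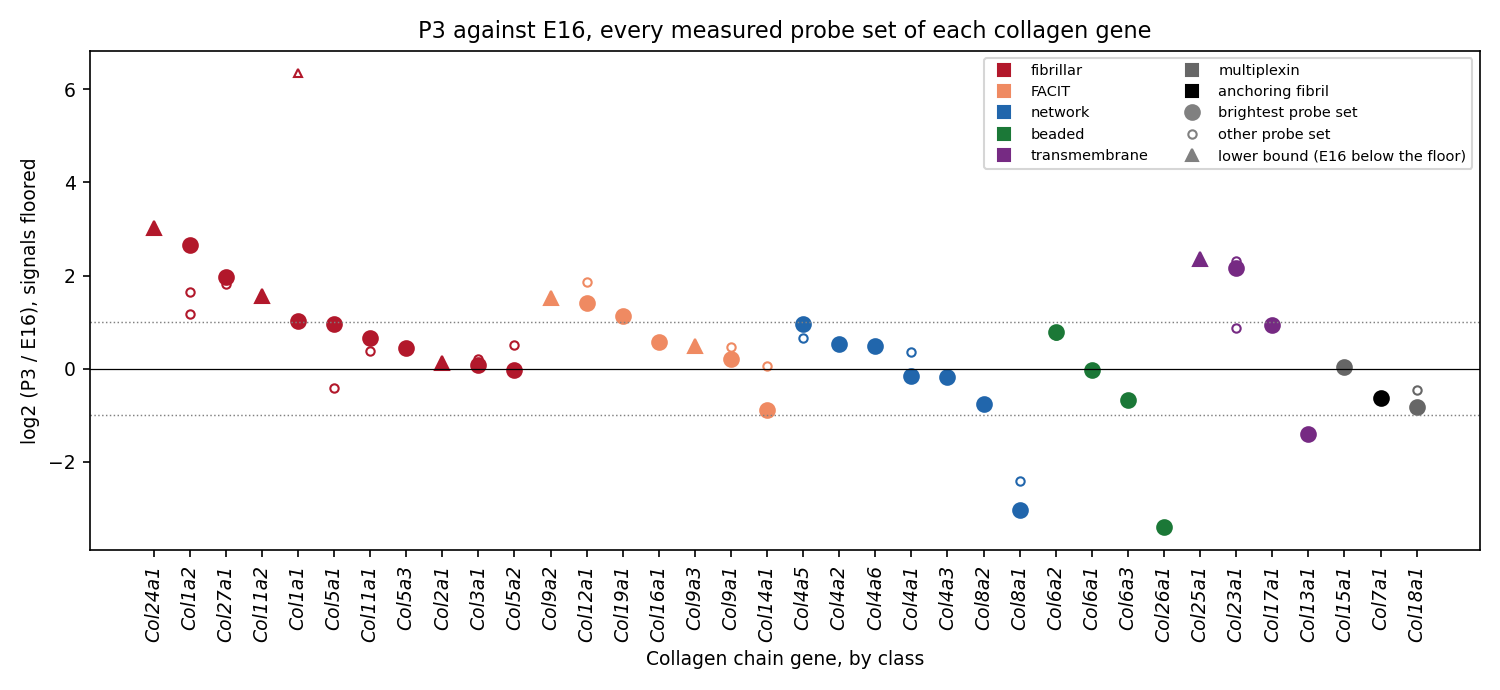
log2 ratio of P3 to E16 (y axis) for every measured probe set of the 36 collagen genes whose main probe set was measured (x axis, ordered by class and then by value); large filled markers stand for the gene, small open markers are its other probe sets, triangles are lower bounds and dotted lines mark 2-fold. The probe sets of Col1a2, Col27a1, Col12a1 and Col8a1 lie past 2-fold on 1 side, whereas those of Col1a1 lie at 1.03 and at least 6.34, and those of Col5a1 on opposite sides of 0.

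Promoter sequences are shown for 5 genes past 2-fold, chosen after their values were seen as examples of a late step, an early step and a lower level. The 150 bases before the annotated start are given 5' to 3' for Col1a2, higher at P3, for Col24a1 and Col27a1, higher from E18, and for Col8a1 and Col13a1, which were lower from E18 and are described with their classes. They are from RefSeq on build GRCm38.p6, at chr6:4505468-4505617 (plus strand), chr3:145292322-145292471 (plus), chr4:63215262-63215411 (plus), chr16:57754738-57754887 (minus) and chr10:61979109-61979258 (minus). Capitals mark matches on either strand to 3 motifs. The first is the GC box, spelled GGGCGG. The second is named for its letters, CCAAT. The last is the TATA box, spelled TATAAA, and no match overlapped another.
Col1a2: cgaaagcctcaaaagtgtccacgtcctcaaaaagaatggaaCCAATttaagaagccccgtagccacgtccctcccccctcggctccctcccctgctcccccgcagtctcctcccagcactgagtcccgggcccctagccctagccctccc
Col24a1: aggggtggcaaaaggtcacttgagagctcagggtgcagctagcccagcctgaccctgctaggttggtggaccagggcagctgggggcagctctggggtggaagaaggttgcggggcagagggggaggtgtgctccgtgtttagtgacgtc
Col27a1: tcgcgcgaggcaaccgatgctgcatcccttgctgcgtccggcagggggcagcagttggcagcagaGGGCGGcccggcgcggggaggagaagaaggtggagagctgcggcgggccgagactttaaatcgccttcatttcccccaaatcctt
Col8a1: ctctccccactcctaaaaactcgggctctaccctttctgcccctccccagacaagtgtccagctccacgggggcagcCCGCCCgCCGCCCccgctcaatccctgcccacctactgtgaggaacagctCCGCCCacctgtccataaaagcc
Col13a1: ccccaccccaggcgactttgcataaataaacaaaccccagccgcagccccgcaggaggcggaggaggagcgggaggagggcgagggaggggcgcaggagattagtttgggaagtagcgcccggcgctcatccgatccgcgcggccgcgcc

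Col1a2 has 1 CCAAT box in this window, Col27a1 has 1 GC box and Col8a1 has 3, while Col24a1 and Col13a1 hold none of the 3 motifs in it. In the 250 bases before the start, 36 promoters of 33 collagen genes matched the table. A GC box stood in 58.3% of them and in 32.7% of all 32851 promoters, a CCAAT box in 36.1% and 33.8%, and a TATA box in 13.9% and 12.4%. The median GC content of those windows was 59.0% for collagens and 52.4% for all promoters. A match describes letters in a window and is not a site of binding.

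FACIT chains, which sit on the surface of fibrils, were mostly higher at P3, and some peaked at E18. Of 7 measured in P3 against E16, 3 were higher by 2-fold or more and 0 lower, beside 6.53% and 15.4% of all genes. The median was 0.58, and 6 of the 7 lay above 0. Col12a1, a large collagen of dense connective tissue, read 650.1, 1047 and 1743, or 2.68-fold higher at P3 than E16. Its second measured probe set read 137, 107 and 502, or 3.66-fold. P3 was the highest array by both, although the E18 array lay 1.61-fold above E16 by the first and 1.28-fold below it by the second.

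Col19a1, a minor FACIT chain, read 114 at E16, 541 at E18 and 248 at P3. It was 4.75-fold higher at E18 than E16 and 2.18-fold lower at P3 than E18, a log2 difference of -1.13 that became -0.93 after both scalings. Between P3 and E16 the log2 difference of 1.12 became 0.59 with a doubled floor. The other Col19a1 probe sets read 25.6, 58.9 and 54.4 and 21.5, 53.0 and 10.9. They never reached the floor, so a single measured probe set carries these values. Col22a1, a collagen of tissue junctions, read 7.46, 329 and 76.1, at least 4.01-fold higher at E18 than on either other array. The other probe sets of Col22a1 read 82.4, 179 and 114 and 23.3, 102 and 21.5, again highest at E18, with smaller differences of 2.18-fold and at least 1.24-fold between E18 and E16. These were the 2 collagens with a 2-fold peak at E18, and the second step of Col22a1 was under 2-fold, at -0.65 on the log2 scale, with a lower floor, over all its probe sets or without probe sets that detect several transcripts. The peak is a shape held by 2.92% of 12553 genes measured on any array.

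The chains of type IX, a FACIT known from cartilage, did not move together. Col9a2 read 9.47, 51.2 and 234 and stood at least 2.85-fold higher on the P3 array than on either embryonic array, a log2 bound of 1.51 that became 0.51 with a doubled floor. Col9a3 read 48.6, 182 and 115, at least 2.22-fold higher at E18 than E16, and 34.9, 104 and 112 by a second probe set, at least 1.27-fold. The first of these, 1.15 on the log2 scale, became 0.15 with a doubled floor. Col9a1 read 124, 92.6 and 144 and stayed within 1.55-fold at each step. Its second probe set read 109, 93.0 and 151. Of 11 cartilage markers, 3 reached the floor at E16, 5 at E18 and 6 at P3, and Matn1, Matn3, Cnmd and Prg4 were below it on all arrays. The summed signal of the list was 1888 at E16, 2128 at E18 and 1987 at P3. Of 7 measured at P3 against E16, 2 were higher by 2-fold or more and 1 lower, beside 6.53% and 15.4% of all genes. Their median was 0.67 on the log2 scale, with 5 above 0 and 2 below. Hapln1 read 1031, 906 and 648, so the sum joins unlike patterns. The part of cartilage in these values was not tested.

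Of the remaining FACIT genes, Col16a1 read 516, 344 and 771, 2.24-fold higher at P3 than E18 and 1.49-fold higher than E16. Col14a1, a chain of dense connective tissue, read 1226, 680.3 and 666, 1.84-fold lower at P3 than E16. Its second probe set read 288, 336 and 299.9, which differed by 1.17-fold at most, so the decrease rests on 1 probe set.

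Among network collagens, Col8a1 alone was past 2-fold between E16 and P3. Of 7 measured, 0 were higher by 2-fold or more and 1 was lower at P3 than E16, beside 6.53% and 15.4% of all genes. The median of -0.16 turned to 0.07 and 0.13 under quantile normalization and equal-median scaling. Both scalings took Col4a5 past 2-fold, at 1.34 and 1.23 on the log2 scale against 0.95 as deposited. Col4a1 and Col4a2 form the common basement membrane network of vessels and epithelia. Col4a1 read 2847, 2504 and 2552, and Col4a2 read 560.1, 533 and 809.9, each within 1.52-fold at both steps. Col4a1 was 0.16 lower at P3 than E16 on the log2 scale and 0.07 or 0.13 higher after the scalings, and Col4a2 moved from -0.07 to 0.01 at the first step. The second Col4a1 probe set read 102, 89.8 and 130.1, or 0.36 higher at P3 than E16 on the log2 scale. Col4a5, a chain of specialised basement membranes, read 499, 409 and 961, or 2.35-fold higher at P3 than E18. Its second probe set read 95.6, 133 and 150.3, lowest at E16 and 1.13-fold higher at P3 than E18. Col4a6 and Col4a3 stayed within 1.45-fold at each step, at signals near the floor.

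Col8a1, a short-chain network collagen of vessels and the corneal basement membrane, was the only collagen lower by 2-fold or more at both steps, a shape held by 0.351% of genes. It read 1418 at E16, 497 at E18 and 173 at P3, which is 2.85-fold lower at the first step, 2.88-fold at the second and 8.21-fold in all. A second probe set read 473, 163 and 88.5, or 5.34-fold in all, and both ran downward over the stages. Its remaining probe set read 9.40, 54.4 and 15.1 and never reached the floor. Col8a2, which can assemble with Col8a1, read 680.1, 493 and 399, or 1.70-fold lower at P3 than E16. Of 9 endothelial markers 7 were measured between these stages, and 1 was lower by 2-fold or more (15.4% of all genes) and 0 higher (6.53%). The median was -0.39, with 3 of the 7 above 0 and 4 below. The list summed to 4123 at E16, 2072 at E18 and 2344 at P3. The lower one was Kdr, a receptor of vascular endothelium, which read 2571, 1062 and 846 and made up most of the sum at E16. Cdh5, Emcn and Eng were higher at P3 than E16, by 1.24-fold, 1.85-fold and 1.58-fold, and Tek, Esam and Robo4 were lower. Pecam1 and Tie1 were below the floor on all arrays, and the part of the vessels in the Col8a1 values was not tested.

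Of the beaded-filament chains, Col6a1 and Col6a3 were lowest at E18 and Col26a1 at P3. Of 4 measured, 3 were lower by 2-fold or more at E18 than E16 and 0 higher, beside 7.99% and 8.00% of all genes, with a median of -1.32. Type VI collagen, a microfibril around cells, is built from the chains of Col6a1, Col6a2 and Col6a3. Col6a1 read 1255, 499 and 1227, 2.52-fold lower at E18 than E16 and back within 1.02-fold at P3, where its log2 difference from E16 of -0.03 turned to 0.35 and 0.25 after the scalings. Col6a3 read 1869, 759 and 1177, or 2.46-fold lower at E18 and 1.59-fold lower at P3.

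Col6a2 read 971, 1472 and 1675 by the probe set that stands for it, without the dip, and 1121, 769 and 1850.5 by the other, with it. Of the 3 chains that assemble together, Col6a1 and Col6a3 thus dipped at E18 and Col6a2 did so by 1 of its 2 probe sets. Col26a1, a secreted collagen known from testis and ovary, read 1182, 178 and 111. This was 6.64-fold lower at E18 and 10.6-fold lower at P3 than E16, the largest decrease of the family in both comparisons. Its second probe set read 64.1, 12.9 and 31.9, all below the floor, so a single measured probe set carries the value.

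Transmembrane collagens went in opposite directions, with 2 of 4 higher by 2-fold and 1 lower between E16 and P3, beside 6.53% and 15.4% of all genes. Col23a1 read 294, 399.9 and 1312, or 4.46-fold higher at P3 than E16, with 4.97-fold and 1.83-fold by the other probe sets, and all 3 were highest at P3. Col25a1, which takes part in motor innervation of muscle, read 72.0, 245 and 421, at least 2.98-fold higher at E18 and at least 5.13-fold at P3. The E18 bound, 1.58 on the log2 scale, became 0.58 with a doubled floor. A second Col25a1 probe set read 80.4, 49.4 and 37.4 and never reached the floor. Col13a1, found at cell-matrix and nerve-muscle contacts, read 346, 142 and 130.1, or 2.43-fold lower at E18 and 2.66-fold at P3.

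Col17a1 is a component of hemidesmosomes, the rivets of basal epithelial cells, and thus an epithelial gene by its known role. It read 83.9 at E16, 311 at E18 and 161 at P3, so E18 was 3.70-fold above E16 and P3 1.93-fold below E18. The E16 signal lay at the floor, and with a doubled floor the first difference of 1.89 on the log2 scale was 0.92. Of 12 epithelial markers measured, 10 were higher by 2-fold or more and 1 lower at E18 than E16, beside 8.00% and 7.99% of all genes. At P3, 2 of 12 measured were higher and 9 lower than at E18, beside 4.05% and 11.7%. The summed signal of the epithelial markers was 8418 at E16, 26523 at E18 and 13484 at P3, with 11 of 13 at or above the floor on each array. Desmoplakin (Dsp), a junction protein, read 1452, 5269.6 and 970.0, and the keratin gene Krt5 read 2069, 4821 and 752, both lowest at P3. The enamel genes Amelx and Ambn read 51.5, 565 and 2339.7 and 826, 3229 and 5377, highest at P3, so the sum at P3 joins unlike patterns. The part of epithelium in the Col17a1, Col19a1, Col22a1 and other E18 values was not tested.

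Collagens of the epithelial basement membrane zone outside these classes moved less than Col17a1 at the first step. Col7a1, which forms the anchoring fibrils of epithelia, read 286, 296 and 184, 1.60-fold lower at P3 than E18. Col18a1, a basement membrane collagen that is the source of endostatin, read 850.5, 946 and 478, or 1.98-fold lower at P3 than E18, and 331, 507 and 243 by its second probe set, or 2.09-fold. Both genes were highest at E18, but by only 1.03-fold for Col7a1 and 1.11-fold for Col18a1 above E16, against 3.70-fold for Col17a1. The second Col18a1 probe set gave 1.53-fold. Col15a1, a related chain, read 172, 161 and 176 and was within 1.09-fold throughout.

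**Figure D4:**
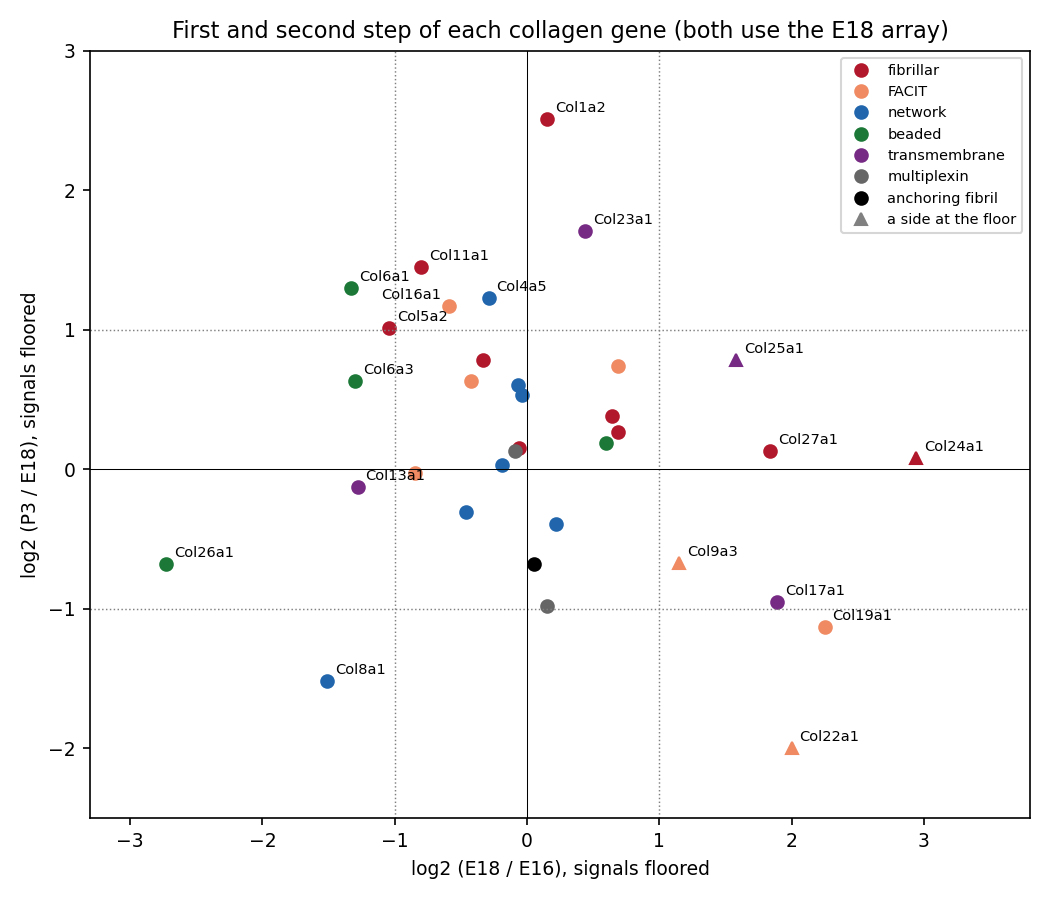
log2 ratio of E18 to E16 (x axis) against log2 ratio of P3 to E18 (y axis) for the 34 collagen genes measured in both steps; colours mark the class, triangles have a side at the floor, and dotted lines mark 2-fold. Both axes use the E18 array, so an error there would move points along a falling diagonal; Col1a2 and Col23a1 lie high, Col24a1 and Col27a1 far right, Col8a1 low and left, Col6a1 and Col5a2 in the upper left.

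In shape over the 3 arrays, 7 of 37 collagens were 2-fold higher at the second step alone (2.88% of genes) and 5 at the first step alone (4.45%). A further 3 were lower at the first step alone (6.59%), and 17 were under 2-fold at both steps (73.8%). Col5a2 and Col6a1 had a 2-fold trough at E18, a shape held by 0.725% of genes. Whatever the size, 13 of 37 collagens were lowest at E18 (23.2% of genes) and 7 were highest there (33.7%). Of the 13, Col3a1, Col4a2 and Col4a6 turned to 0.02, 0.01 and 0.05 above E16 on the log2 scale after equal-median scaling and were then no longer lowest. The 13 included Col3a1, Col5a2, Col5a3, Col11a1, Col16a1, Col6a1 and Col6a3, chains of connective tissue, and Col4a1, Col4a2, Col4a5 and Col4a6. By its second probe set Col4a5 was lowest at E16 instead. Of 9 dental mesenchyme markers, 6 were lower by 2-fold or more and 1 higher at E18 than E16, beside 7.99% and 8.00% of all genes. Their summed signal was 11143 at E16, 4585 at E18 and 5618 at P3, and its part in the E18 low points was not tested.

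Collagen genes that lie next to each other in the genome could differ in their values. In RefSeq (GRCm38.p6), Col4a1 and Col4a2 start 21 bases apart on opposite strands of chromosome 8, and their log2 differences between E18 and E16 were -0.19 and -0.07. Col4a6 and Col4a5 start 1343 bases apart on opposite strands, with -0.04 and -0.29 at the first step and 0.53 and 1.23 at the second, the value of -0.04 turning to 0.05 after equal-median scaling. Col3a1 and Col5a2 are neighbours too, with -0.06 and -1.04 at the first step. Col9a1 and Col19a1 are adjacent as well and differed most at the first step, with -0.42 and 2.25. Col4a1 and Col4a2 differed in sign between P3 and E16, at -0.16 and 0.53, but only as deposited and by the probe set that stands for Col4a1. The value of Col4a1 turned to 0.07 and 0.13 after the scalings and was 0.36 by its second probe set.

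Genes that process or meet collagen gave a mixed picture beside the chains. Of 23 measured genes of collagen folding, trimming and cross-linking, 4 were higher by 2-fold or more and 2 lower at P3 than E16, beside 6.53% and 15.4% of all genes, with a median near 0. The counts were 6 and 2 with a median of 0.38 after quantile normalization, and 5 and 2 with 0.28 after equal-median scaling. Lysyl oxidase (Lox), which cross-links fibrils, read 379, 579 and 3146, Sparc, which binds collagen in bone and dentin, read 677, 774 and 4513, and Pcolce, which speeds the trimming of procollagen, read 866, 3149.9 and 4066. Lox and Sparc had their larger step after E18, as Col1a2 did, and Pcolce before it. These were named for the largest differences between P3 and E16 among genes at the floor or above on both arrays. Of the 23 measured, 13 were lower at P3 than E16 and 10 higher, by any amount and as deposited. Of 12 fibril-associated proteoglycans and proteins, 6 were higher and 1 lower (median 0.96), with Fmod reading 184, 178 and 4526, Dcn 401, 2243 and 6018 and Ogn 723, 1345 and 5387. These proteins bind fibrils and shape their growth.

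Of 8 measured collagen receptors, 2 were higher by 2-fold or more and 1 lower at P3 than E16, beside 6.53% and 15.4% of all genes. Their median of -0.21 turned to 0.16 and 0.08 under the scalings. Itga10, an integrin chain that binds collagen, read 122, 237 and 887, Ddr2, a kinase receptor for fibrillar collagen, read 808, 753 and 2638, and Itgb1, the common partner of collagen-binding integrins, read 1186, 446 and 448. Of 6 measured proteases that cut collagen, 0 were higher and 2 lower at P3 than E16 (median -0.70), beside the same shares of all genes. Mmp9 read 1040.0, 350.2 and 228, Mmp2 read 3269.6, 1335 and 1755, and the osteoclast protease gene Ctsk 1522, 486 and 2558. At E18, 4 of 6 were 2-fold or more below E16, beside 7.99% of all genes, and Mmp9 went on to be lowest at P3.

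Markers of the cells that could carry these RNAs also differed between arrays. Of 6 odontoblast genes, 5 were higher by 2-fold or more and 1 lower at P3 than E16, beside 6.53% and 15.4% of all genes. The list summed to 2374 at E16, 12617 at E18 and 27171 at P3. Dspp, the dentin matrix gene, read 40.8, 4076 and 18982 and made up most of the sum at P3. From E18 to P3, 3 of the 6 were higher and 2 lower, beside 4.05% and 11.7% of all genes. The lower ones were Dmp1, by 4.75-fold, and Panx3, by 2.01-fold. Ibsp, the gene lower at P3 than E16, is also in the bone list. Macrophage genes, of which 6 of 10 were higher and 0 lower at P3 than E16 (6.53% and 15.4% of all genes), summed to 2241, 4614 and 8698. Of the bone markers Sp7, Ibsp and Pth1r, 2 of 3 were lower by 2-fold or more at P3 than E16 (15.4% of all genes). Mural cell markers summed to 5492, 5794 and 6771. Of 7 measured at P3 against E16, 2 lay above 0 and 5 below, with a median of -0.25 on the log2 scale. Rgs5 alone was past 2-fold, and higher (6.53% of all genes), and it read 359, 2163 and 1644. Schwann cell markers summed to 417, 467 and 398 with S100b below the floor throughout, and muscle markers to 381, 189.6 and 344 with Myog, Acta1 and Tnnt3 below it. At E18 the Schwann gene Sox10 was 1.83-fold below E16 and Mbp 2.45-fold above it. Of 6 muscle markers, 2 reached the floor at E16, 1 at E18 and 3 at P3, so their sums include signals below the floor. The part of these cells in the collagen values was not tested.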

How the data were processed

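Per the labels' protocols, RNA from over 20 papillae per stage was amplified by 2-cycle labelling to biotin-cRNA, and 1 array was hybridised per stage. The software named is GCOS (no version stated), per the submitters' processing notes. The deposited values are ratios: per the values, the authors divided 90.4% of 45101 probe sets by their middle value, and the rest by a fixed lowest divisor of 10. Scaling before that is not given in the sources used here. Array steps relative to P3 were 0.7177 (E16) and 1.0802 (E18). Signals were recovered as the smallest whole numbers of steps that match the ratios within a relative 3e-07 and keep the divisor at 10 or more. Above a signal of 437, as in 20 of the 42 collagen genes, a recovered level may be chance and too low. The recovery was tested on simulated data. All 42 genes were listed in 7 classes, with 4 lists of partner genes and 10 of cell type markers. Named were collagens past 2-fold in any comparison, 16 fixed chains, and at most 3 genes per partner list, with the largest difference between P3 and E16 among those at the floor or above on both arrays. Members and lists were chosen with earlier results of these data known. The design assumed differences between single arrays without a test, and 9 alternatives were run. Python 3.11.15, numpy 2.4.6, pandas 2.3.3, numba 0.67.0 and matplotlib 3.10.9 were used.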

Additional observations from a re-analysis of the deposited data

How the results depend on the processing

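No paired analysis was possible because each stage has 1 array. The number of arrays limits every value, and the recovered level limits genes near the floor. At the 2-fold threshold, 7 alternatives of scaling, floor and probe set kept the direction and the call of 8 of 13 collagens for E18 against E16, 5 of 12 for P3 against E18 and 9 of 13 for P3 against E16. The others lost the call, or were not measured, under at least 1 of them. Without probe sets that detect several transcripts, Col16a1 and Col17a1 had no probe set left. The probe set left for Col26a1 was below the floor on all arrays. Medians also change because other genes enter. For E18 against E16 the median of -0.05 turned to 0.03 after equal-median scaling, 0.01 with a lower floor and 0.00 without probe sets that detect several transcripts; the higher genes numbered 4 with a doubled floor, and the counts were 11 higher and 9 lower at 1.5-fold and 5 and 1 at 3-fold. For P3 against E18 the median was 0.62 after quantile normalization, 0.39 after equal-median scaling, 0.37 with no floor, 0.39 over all probe sets and 0.46 without probe sets that detect several transcripts. Its counts became 15 higher and 8 lower at 1.5-fold, and 2 and 1 at 3-fold. For P3 against E16 the median was 0.66 after quantile normalization and 0.74 after equal-median scaling, with 15 higher and 8 lower at 1.5-fold and 5 higher and 2 lower at 3-fold.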
